A study of Mus musculus with 24 samples.

Results

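The 30 genes described here belong to the nuclear receptor superfamily and were taken by name from the 46318 gene IDs of a mammary tumour RNA sequencing study in mice. No measured value served as a rule for the choice, but the 30 were chosen with earlier results of these data known. They are read here together with 19 other receptor genes, so that 49 genes of the superfamily were looked at in all. The tumours came from MMTV-PyMT mice, in which the mouse mammary tumour virus promoter drives the polyoma middle T oncogene in the mammary epithelium, so that tumours arise without implantation. The MMTV-PyMT strain was bred with animals carrying or lacking Nr0b2, the gene of the orphan receptor SHP, itself a member of the superfamily without a DNA-binding domain. The 2 groups are NR0B2-/- PyMT+ tumours, labelled KO (n = 12), and NR0B2+/+ PyMT+ tumours, labelled WT (n = 12), and both carry the oncogene. Tumours were taken at a volume of 2000 mm3, frozen and homogenised whole, and no treatment is labelled. The ages of the mice are not in the labels, nor do they say if any tumours share an animal, so p-values here measure the spread between these tumours.

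Nuclear receptors are transcription factors that bind DNA through a zinc finger domain and, in most members, a small lipophilic ligand through a second domain. Steroid receptors bind mostly as homodimers, whereas the receptors for retinoic acid, thyroid hormone, vitamin D and fatty acids pair with a retinoid X receptor. Without ligand many of them hold corepressors such as NCOR1 on their target genes, and with ligand they exchange these for coactivators. In the mammary gland they relay steroid, retinoid, vitamin D and metabolic signals to the epithelium and its stroma.

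Each library held between 18789250 and 38022182 reads counted in genes, and 3 reads in a library corresponded to 0.0789 to 0.16 CPM (counts scaled to a common library total). A receptor was called detected in a library above 3 reads. Levels are given as CPM scaled by the trimmed mean of M values (TMM), and genes are compared with each other only as CPM per kilobase of exon. The luminal epithelial markers (8 genes, Epcam and Krt8 among them) summed to between 3521 and 9141 CPM, with no marker at 0 in all libraries, so the defining genes of the labelled tissue were present throughout. The targeted gene went against its labels: Nr0b2 had 182 reads in the KO-labelled libraries and 1 in the WT-labelled ones. Gene counts do not show which part of Nr0b2 those reads cover, and every direction below therefore follows the labels and not a measured loss of the gene. Library KO 12 stood apart, as described below, and several group differences are also given without it.

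Of the 30 receptors, 28 were detected, 26 of them in all 24 libraries, and 2 were not. Per kilobase, the vitamin D receptor Vdr had the highest mean level, at 31.9 ± 11.2 CPM per kilobase (SD, n = 24). It was followed by Rxra at 22.4 ± 3.79, Esrra at 21.8 ± 5.25, Rarg at 21.1 ± 3.67 and Rxrb at 21 ± 2.90 CPM per kilobase. Nr2f6, Nr3c1, Nr1d2, Ppard and Nr4a1 completed the 10 highest, with means from 18.1 down to 10.7 CPM per kilobase. These 10 made up 79.9 ± 2.89% of the summed level of the listed receptors (SD, n = 24), and the 5 highest made up 49.6 ± 4.52%. Together the listed receptors summed to 238.4 ± 17.5 CPM per kilobase, which was 81.5 ± 2.26% of the sum over all 49 receptor genes.

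The lower part of the order ran from Rara at 8.25 CPM per kilobase through Thra, Nr2c1, Nr4a2, Nr1d1, Nr2c2, Nr3c2 and Esrrg to Nr2f2 at 1.61 CPM per kilobase. Below it lay Pparg, Rora, Thrb, Nr4a3, Nr6a1, Rxrg, Rarb and Ppara, and Nr2f1 was the lowest detected receptor at 0.154 CPM per kilobase. The mean level of Vdr was 207 times that of Nr2f1. The order between neighbours was mostly not fixed: the mean log2 ratio of levels exceeded its own SD over the 24 libraries in 2 of 27 neighbouring pairs. These were Rxrb over Nr2f6, in 22 of 24 libraries, and Ppara over Nr2f1, in 21 of 24. Rarg and Rxrb, by contrast, took the higher place in 12 libraries each. Thrb lay above Nr4a3 in 23 of 24 libraries, with a mean log2 ratio of 1.17 ± 1.20 (SD). Nr4a3 lay above Nr6a1 in only 5 of 24, and Nr4a3 ranked 23 by mean but 25 by median. Without KO 12 no rank moved. Dividing by exon length mattered: by CPM alone the glucocorticoid receptor Nr3c1 was first, at 148 CPM, and Rora, at 54.9 CPM, was among the 10 highest. The exon model of Rora spans 51763 bases, and its level per kilobase was 1.06.

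**Figure D1:**
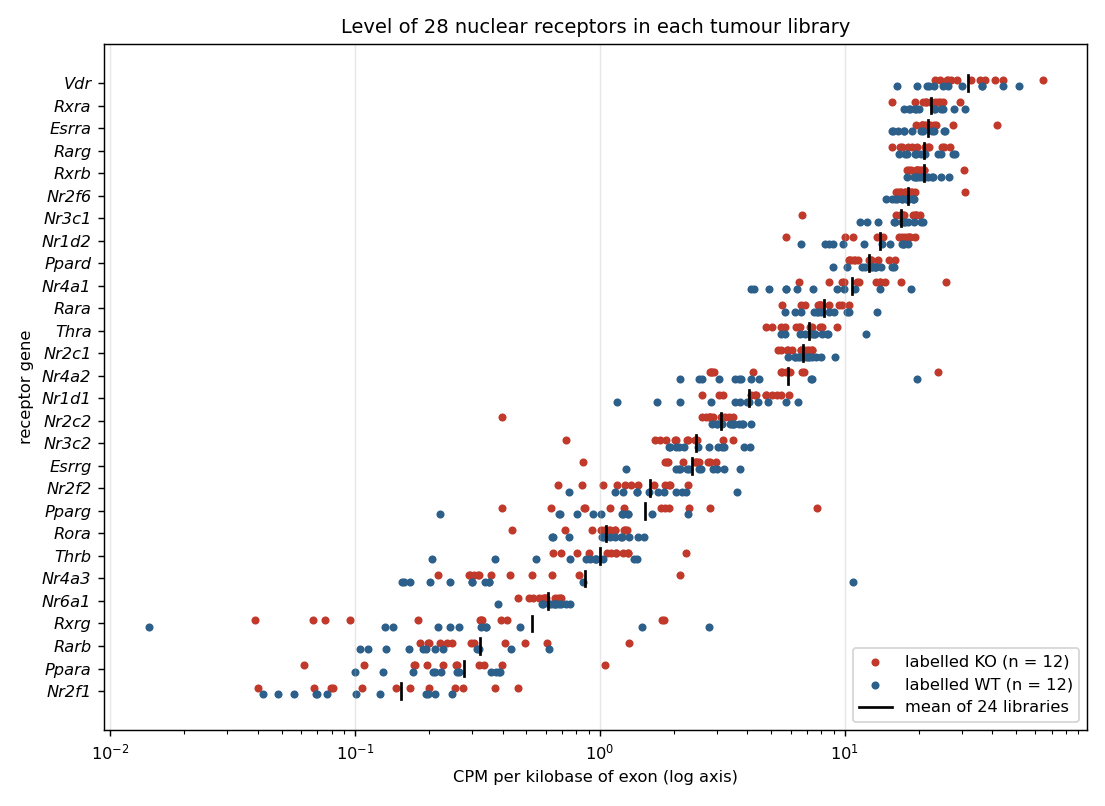
Level of the 28 detected receptors in each of the 24 libraries, in CPM per kilobase of exon on a log axis, with red points for the 12 KO-labelled libraries, blue points for the 12 labelled WT and a black tick for the mean of 24. Vdr leads at a mean of 31.9 CPM per kilobase, the groups overlap for every receptor, and the points spread most widely for Nr4a3, Rxrg and Pparg.

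The comparison of the design is between tumours of the 2 Nr0b2 genotypes. In edgeR (quasi-likelihood, adjusted p under 0.05) 0 of the 28 tested receptors were called, beside 50 of all 15820 tested genes (0.316%). DESeq2 also called 0 of the 28 and 2.64% of all genes, and limma voom 0 and 0.436%. At an adjusted p under 0.1 edgeR still called 0, with 1.46% of all genes. At an unadjusted p under 0.05 edgeR counted 3 receptors (10.7%), Nr4a1, Esrra and Pparg, all with a higher mean in the KO-labelled libraries, while 18.9% of all tested genes lay under that value, 10% with a higher and 8.9% with a lower mean in that group. The share among receptors was not above that among genes in general. Membership and direction depended on KO 12. Without it Nr4a1 and Pparg stayed under that value (unadjusted p = 0.0168 and 0.0212 in edgeR), but Esrra did not (0.112). Nr2c2 and Rxrb, both with negative log2 differences, came under it (unadjusted p = 0.00609 and 0.0444 in edgeR), beside 17.8% of all genes. With all libraries, the lowest adjusted p of the 28 was 0.185, for Nr4a1. Fitted log2 differences, labelled KO minus labelled WT, were positive for 14 receptors and negative for 14, with a median of -0.02 and a median size of 0.22, beside 0.15 over all tested genes. The 2 groups' CPM ranges overlapped for all 28 receptors, as they did for all but 8 of the tested genes (0.0506%). The authors' deposited table holds 25 of the receptors, none below an adjusted p of 0.05 and the lowest at 0.189. In a bulk sample, fewer cells of a type and less RNA per cell cannot be told apart.

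**Figure D2:**
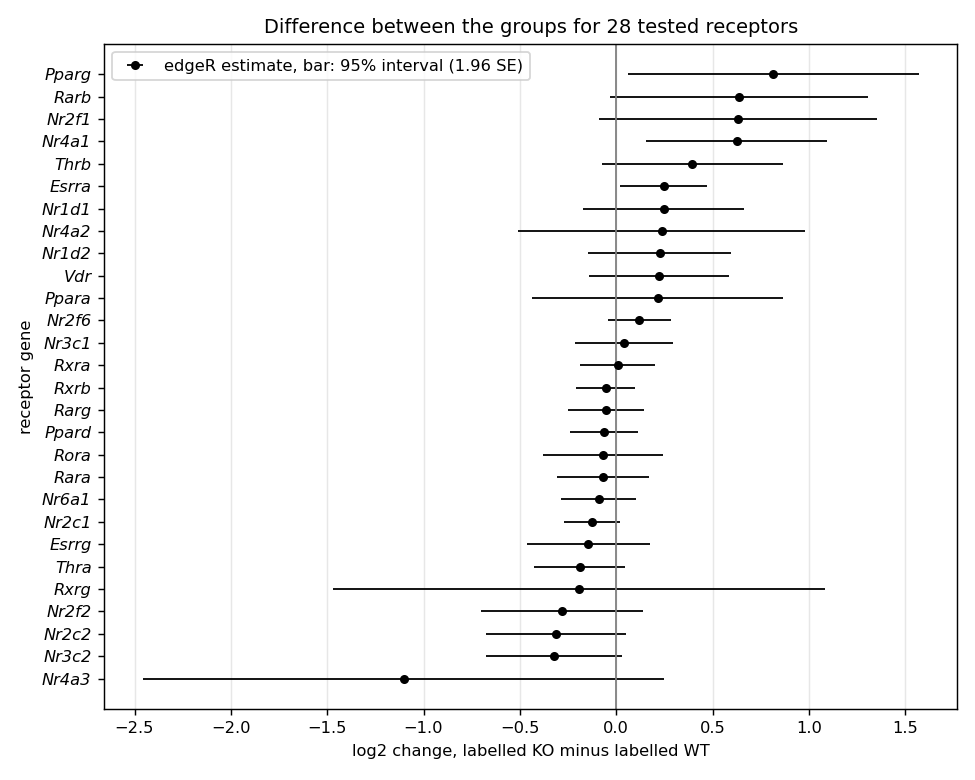
Fitted log2 difference of each of the 28 tested receptors, labelled KO minus labelled WT, with 95% intervals from the standard error of the edgeR fit (n = 12 in each group). The interval includes 0 for 25 receptors, and the other 3 are Pparg, Nr4a1 and Esrra, none of which passed after adjustment.

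The retinoid X receptors, the shared dimer partners of the family, were carried by Rxra and Rxrb, both among the 5 highest receptors per kilobase, with Rxrg rare. Rxra (chromosome 2, 27566457 to 27653331, GRCm39) had a lowest, median and highest level of 88.6, 127.6 and 168 CPM in the KO-labelled libraries. In the WT-labelled ones the same values were 99.9, 123 and 177 CPM. The groups covered nearly the same range, and the log2 difference was 0.01 ± 0.10 (SE), with a 95% interval of -0.19 to 0.20. Rxrb, the widely expressed second partner, averaged 57.1 ± 9.18 CPM (SD, n = 12) in the KO-labelled libraries and 59.2 ± 6.94 CPM (n = 12) in the WT-labelled ones. Its highest library was KO 12, at 84.8 CPM, and the log2 difference was -0.05 ± 0.08, or -0.12 without KO 12. Rxrg, the form best known from muscle and brain, was uneven. Its level ranged from 0.0973 to 4.58 CPM in the KO-labelled libraries and from 0.0359 to 6.99 CPM in the WT-labelled ones, with 1 read in the lowest library. The 3 highest Rxrg libraries were WT 16, KO 11 and KO 5, so neither group held the high values alone. Its log2 difference of -0.19 ± 0.65 became 0.45 without WT 16. As a group the retinoid X receptors made up 18.5 ± 1.89% of the listed receptors' summed level (SD, n = 24), the largest share of any role group.

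Among the retinoic acid receptors, which take all-trans retinoic acid as ligand, Rarg was the main form. Rarg averaged 70.4 ± 12.4 CPM in the KO-labelled libraries and 73.1 ± 12.9 CPM in the WT-labelled ones, a log2 difference of -0.06 ± 0.10. Rara averaged 37.5 ± 6.37 CPM against 39.4 ± 10.1 CPM, with a log2 difference of -0.07 ± 0.12, and 0.01 without WT 23, its highest library. The highest library was 1.8 times the lowest for Rarg and 2.45 times the lowest for Rara. Rarb (chromosome 14, 5387365 to 6038924, GRCm39), which is itself induced by retinoic acid in many cells, was the scarce form. In the KO-labelled libraries its lowest, median and highest levels were 0.697, 1.03 and 4.95 CPM, and in the WT-labelled ones 0.394, 0.767 and 2.33 CPM. One library, KO 11, lay far above the rest of its group, and the log2 difference of 0.64 ± 0.34 (adjusted p = 0.308 in edgeR) was 0.29 without it. KO 11 also had the highest summed level of adipocyte, skeletal muscle, fibroblast, macrophage, T cell and B cell markers, and with adipocyte and muscle scores in the fit the Rarb difference was 0.12 (adjusted p = 0.868 in edgeR).

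Rarb is a classic retinoic acid target through a direct repeat spaced by 5 bases just before its start, and the sequence shows this element. The 250 bases before the Rarb start, from RefSeq on GRCm38.p6 (chr14:16575477-16575726, minus strand), are given 5′ to 3′, with the match to GGTTCA, any 5 bases and AGTTCA in capitals.
Rarb: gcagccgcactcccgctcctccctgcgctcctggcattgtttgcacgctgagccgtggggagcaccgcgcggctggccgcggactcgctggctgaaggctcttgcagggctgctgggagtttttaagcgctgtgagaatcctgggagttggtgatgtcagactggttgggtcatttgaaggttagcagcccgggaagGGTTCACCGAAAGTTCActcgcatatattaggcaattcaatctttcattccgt
The match begins 53 bases before the start. Of 32851 promoter windows of 300 bases (250 before and 50 after the start) searched on both strands, 2 held this motif (0.00609%), and Rarb was the only listed receptor with it. The letters describe the reference sequence and not whether a receptor was bound in these tumours.

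The genes that make, carry and degrade retinoids gave no call: 0 of 13 tested retinoid handling genes passed, with 2 at an unadjusted p under 0.05 (15.4%, beside 18.9% of all tested genes). Without KO 12 that count was 3 (23.1%, beside 17.8% of all genes). Crabp2, which carries retinoic acid to its receptor, averaged 167 ± 53.4 CPM in the KO-labelled libraries and 103 ± 47.7 CPM in the WT-labelled ones (adjusted p = 0.140 in edgeR). It lay above the WT median in 12 of 12 KO-labelled libraries. Aldh1a3, which makes retinoic acid, averaged 50.7 ± 15.8 CPM against 87.4 ± 64.4 CPM (adjusted p = 0.2 in edgeR), with its highest value in WT 23 and an unadjusted p of 0.0587 without that library. Tgm2, a transglutaminase that retinoic acid induces, was the most abundant of the list at 251.8 ± 67.1 and 292 ± 90.9 CPM. The chosen genes are the smallest p-values and the most abundant gene of a fixed list, so they are not typical of it.

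The peroxisome proliferator-activated receptors, sensors of fatty acids, were carried by Ppard. Ppard, the ubiquitous form, averaged 41.2 ± 6.23 CPM in the KO-labelled libraries and 42.9 ± 6.57 CPM in the WT-labelled ones, a log2 difference of -0.06 ± 0.09. Ppara, the form of oxidative tissues such as liver, averaged 3.11 ± 2.67 CPM against 2.68 ± 1.06 CPM. KO 11 held its highest value, 10.98 CPM, and the log2 difference of 0.22 ± 0.33 was -0.16 without KO 11 and 0.31 without KO 12. Pparg (chromosome 6, 115337840 to 115467365, GRCm39), the regulator of fat cell differentiation, was the least even of these. Its lowest, median and highest levels were 1.48, 5.63 and 28.5 CPM in the KO-labelled libraries and 0.826, 4.16 and 8.51 CPM in the WT-labelled ones. KO 2, KO 8 and, far higher, KO 11 lay above the whole WT range, and the other KO-labelled libraries overlapped it. The log2 difference was 0.81 ± 0.39 (unadjusted p = 0.0447, adjusted p = 0.254 in edgeR), and 0.37 without KO 11. Without KO 12 it was 0.91 (unadjusted p = 0.0212, adjusted p = 0.21 in edgeR). The 9 adipocyte markers, Adipoq and Plin1 among them, moved with Pparg: they summed to 94.7 to 3199 CPM in the KO-labelled libraries, highest in KO 11, and to 20.2 to 833 CPM in the WT-labelled ones, lowest in WT 23, the library lowest in Pparg. None of the 9 was at 0 in all libraries, and none passed the test. With adipocyte and muscle scores as covariates the Pparg difference was 0.19 (adjusted p = 0.698 in edgeR).

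Within each group Pparg tracked the mean adipocyte marker score. Pearson's r was 0.866 in the KO-labelled libraries (n = 12, permutation p = 0.00029, adjusted over 14 relations 0.00203) and Spearman's rho was 0.797 (p = 0.00288 by permutation). In the WT-labelled libraries r was 0.824 (n = 12, permutation p = 0.00097, adjusted 0.00453) and rho was 0.671 (p = 0.0205 by permutation). Without the 2 libraries farthest in Pparg, r was 0.676 in the first group (permutation p = 0.0354, without KO 11 and KO 12) and 0.551 in the second (permutation p = 0.1, without WT 16 and WT 23). Adjusted over the 14 relations, the first was 0.114 by permutation, so in both groups passing the threshold rests on those libraries, and both measures share the libraries' tissue content. Pparg and Rxrg, its possible dimer partner, were not related at the threshold, with r of 0.287 and 0.564 (adjusted p = 0.514 and 0.124 by permutation). Without the same libraries the sign turned in each group, to -0.23 (permutation p = 0.532) and -0.57 (permutation p = 0.0744).

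The listed genes that PPARs are known to drive gave 0 calls among 10 tested, with 3 at an unadjusted p under 0.05 (30%, all higher in the KO-labelled libraries, beside 18.9% of all tested genes, 10% in that direction). A positive log2 difference was seen in 9 of the 10, and in 51.3% of all tested genes. Without KO 11 the count under an unadjusted p of 0.05 was 5 (50%, beside 17.2% of all genes). Without KO 11 and KO 12 it was 4 (40%, beside 15% of all genes), and in both repeats all were higher in the KO-labelled libraries. Pdk4, which restrains glucose oxidation, averaged 12.7 ± 20.8 CPM in the KO-labelled libraries and 2.95 ± 2.44 CPM in the WT-labelled ones, highest in KO 11 at 67.8 CPM (adjusted p = 0.138 in edgeR). Its log2 difference of 2.10 was 1.38 without KO 11 (unadjusted p = 0.0291 in edgeR). Acadm, a mitochondrial fatty acid dehydrogenase gene, averaged 134 ± 41.4 CPM against 101.7 ± 16.7 CPM (adjusted p = 0.138 in edgeR) and was also highest in KO 11. The log2 difference of Acadm went from 0.40 to 0.29 without KO 11 (unadjusted p = 0.00918 in edgeR). Ucp2, a mitochondrial carrier and the most abundant of the list, averaged 768 ± 288 against 569 ± 283 CPM, highest in KO 12. The library with the most fat and muscle marker RNA was thus also the highest in the first pair, and the part of that content in their differences was not tested.

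The vitamin D receptor Vdr (chromosome 15, 97752308 to 97806177, GRCm39), which slows growth of mammary epithelium when liganded, ranged from 101.3 through a median of 134 to 280 CPM in the KO-labelled libraries. In the WT-labelled libraries it ranged from 70.8 through 113 to 225 CPM. Of the KO-labelled libraries, 10 of 12 lay above the WT median, yet the ranges overlapped widely. The log2 difference was 0.22 ± 0.19 (adjusted p = 0.518 in edgeR), and 0.10 without KO 7, its highest library. Thra, the alpha form of the thyroid hormone receptor, averaged 42.5 ± 8.63 CPM against 48.5 ± 11.2 CPM, a log2 difference of -0.19 ± 0.12. The beta form Thrb averaged 17 ± 6.25 CPM against 12.9 ± 5.35 CPM, a log2 difference of 0.40 ± 0.24 (adjusted p = 0.362 in edgeR). It was highest in KO 9, at 33.6 CPM, and lowest in WT 23, at 3.09 CPM. The thyroid forms thus had differences of opposite sign, taken up again below as a share.

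Of 8 tested genes that handle thyroid hormone or vitamin D, none passed and none had an unadjusted p under 0.05. Dio2, which activates thyroid hormone, averaged 6.25 ± 2.80 CPM in the KO-labelled libraries and 4.61 ± 1.78 CPM in the WT-labelled ones. Cyp24a1, which degrades vitamin D and is a sensitive target of Vdr, averaged 5.88 ± 4.56 against 14.4 ± 34.2 CPM, with 122 CPM in WT 13 alone. Without WT 13 its WT mean was 4.62 ± 3.70 CPM (n = 11), and the log2 difference of -1.29 turned to 0.35. Thrsp, a lipogenic gene induced by thyroid hormone, averaged 283 ± 195 against 186 ± 121 CPM and was highest in KO 11, with a log2 difference of 0.60, or 0.38 without that library.

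The corticosteroid receptors were dominated by the glucocorticoid receptor. Nr3c1 ranged from 58.2 through a median of 152 to 178 CPM in the KO-labelled libraries and from 101.1 through 151 to 183 CPM in the WT-labelled ones. The medians nearly coincided, and the lowest value was that of KO 12. The log2 difference was 0.04 ± 0.13, with a 95% interval of -0.21 to 0.30, and 0.12 without KO 12. Nr3c2, the mineralocorticoid receptor, averaged 19.6 ± 6.38 CPM against 24.6 ± 6.72 CPM, and 10 of 12 KO-labelled libraries lay below the WT median. Its log2 difference was -0.32 ± 0.18 (adjusted p = 0.329 in edgeR), and -0.24 without KO 12, which again held the lowest value, 6.50 CPM.

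Among 11 corticosteroid response genes none passed, with 5 at an unadjusted p under 0.05 (45.5%, beside 18.9% of all tested genes), 3 with a higher mean in the KO-labelled libraries and 2 with a lower one. Without KO 12 the count was 2 (18.2%, beside 17.8% of all genes), both lower. Hsd11b2, which inactivates corticosterone, averaged 0.635 ± 0.340 CPM in the KO-labelled libraries and 3.10 ± 8.29 CPM in the WT-labelled ones, where WT 17 held 29.4 CPM (adjusted p = 0.131 in edgeR). Mt1, a metallothionein gene, averaged 172 ± 279 CPM against 73.4 ± 21.5 CPM, with 1053 CPM in KO 12 (adjusted p = 0.152 in edgeR). Both differences were largely those of 1 library. Without WT 17 the WT mean of Hsd11b2 was 0.712 ± 0.341 CPM (n = 11), and the log2 difference went from -2.29 to -0.17 (unadjusted p = 0.576). Without KO 12 the KO mean of Mt1 was 91.5 ± 32.3 CPM (n = 11), and the log2 difference went from 1.22 to 0.31 (unadjusted p = 0.1). Neither changed sign. Sgk1, a kinase gene under both receptors and the most abundant of the list, averaged 122 ± 32.4 against 144 ± 43.2 CPM.

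Esrra (chromosome 19, 6888345 to 6899416, GRCm39), an orphan receptor that drives mitochondrial genes, was one of the 3 receptors under an unadjusted p of 0.05. Its lowest, median and highest levels were 50.3, 55.9 and 107.9 CPM in the KO-labelled libraries and 40.2, 50.6 and 66 CPM in the WT-labelled ones. Of the KO-labelled libraries, 11 of 12 lay above the WT median, but only KO 11 and KO 12 lay above the whole WT range. The log2 difference was 0.25 ± 0.12 (unadjusted p = 0.0421, adjusted p = 0.249 in edgeR). It was 0.14 without KO 12 (unadjusted p = 0.112) and 0.07 in limma voom with quality weights. Esrrg, its relative in tissues of high energy demand, averaged 25.4 ± 6.53 against 28.1 ± 7.19 CPM, a log2 difference of -0.14 ± 0.16, with its lowest value, 9.53 CPM, in KO 12, and -0.07 without that library.

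The haem and clock receptors were led by Nr1d2. The products of Nr1d1 and Nr1d2, the REV-ERBs, repress clock genes through response elements that they share with the activator encoded by Rora. Nr1d2 (chromosome 14, 4230549 to 4265640, GRCm39) ranged from 44.6 through a median of 131 to 151 CPM in the KO-labelled libraries and from 51.3 through 101.8 to 141 CPM in the WT-labelled ones. Its paralogue Nr1d1 (chromosome 11, 98658758 to 98666233, GRCm39) ranged from 7.79 through 13.5 to 17.6 CPM and from 3.50 through 11.5 to 19.1 CPM. Both genes thus had their higher median in the KO-labelled libraries and wide, overlapping ranges. The log2 differences were 0.23 ± 0.19 for Nr1d2 and 0.25 ± 0.21 for Nr1d1 (adjusted p = 0.518 and 0.533 in edgeR). The last exons of Nr1d1 and Thra lie on opposite strands and share 263 bases, and no strand setting is recorded for the counting. Under the recorded settings reads in those bases were assigned to neither gene. Rora averaged 53.6 ± 12.8 against 56.2 ± 14.9 CPM, a log2 difference of -0.07 ± 0.16.

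Nr1d1 and Nr1d2 varied together across tumours. In the WT-labelled libraries Pearson's r was 0.895 (n = 12, permutation p = 3e-05, adjusted 0.00042) and Spearman's rho was 0.860 (p = 0.0006 by permutation), and r was 0.815 without WT 13 and WT 18 (permutation p = 0.00223). In the KO-labelled libraries r was 0.750 (n = 12, permutation p = 0.00546, adjusted 0.0191) and rho was 0.678 (p = 0.0189 by permutation). Without KO 1 and KO 12, the farthest in Nr1d1, r was 0.544 (permutation p = 0.112). Leaving out KO 12 alone gave the same r of 0.544 (adjusted p = 0.134 by permutation), so in that group passing the threshold rests on KO 12. No time of day of tumour collection is labelled. Of the 15 clock genes fixed as a list none passed, with 2 at an unadjusted p under 0.05 (13.3%, beside 18.9% of all tested genes), while 11 of 15 had a positive log2 difference, as did 51.3% of all tested genes. Bhlhe40, a repressor of clock output, averaged 204 ± 83.3 CPM in the KO-labelled libraries and 150.3 ± 47.0 CPM in the WT-labelled ones (adjusted p = 0.213 in edgeR), above the WT median in 12 of 12. Cry1, a repressor of the CLOCK and BMAL1 pair, averaged 19.5 ± 6.45 against 15.6 ± 3.11 CPM (adjusted p = 0.2497 in edgeR). Both were highest in KO 12, and without it their unadjusted p was 0.0816 and 0.125. In windows of 250 bases before to 50 after the start, AGGTCA, the half-site of these receptors, stood once in that of Nr1d2 and not in that of Nr1d1, with 16.3% of all windows holding it on either strand. The E-box CACGTG, bound by CLOCK and BMAL1, stood in neither, in 3 of the 43 windows of listed receptors and in 7.15% of all windows.

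The NR4A receptors are orphan receptors made within minutes of many stimuli, and no ligand is needed for their action. Their promoters are known for binding CREB, the factor activated by cyclic AMP. The 250 bases before the start of each gene, from RefSeq on GRCm38.p6, are shown because all 3 hold the core of the cyclic AMP response element, TGACG, several times; matches on either strand (TGACG or CGTCA) are in capitals. The windows are chr15:101266596-101266845 (plus strand) for Nr4a1, chr2:57124004-57124253 (minus strand) for Nr4a2 and chr4:48045055-48045304 (plus strand) for Nr4a3.
Nr4a1: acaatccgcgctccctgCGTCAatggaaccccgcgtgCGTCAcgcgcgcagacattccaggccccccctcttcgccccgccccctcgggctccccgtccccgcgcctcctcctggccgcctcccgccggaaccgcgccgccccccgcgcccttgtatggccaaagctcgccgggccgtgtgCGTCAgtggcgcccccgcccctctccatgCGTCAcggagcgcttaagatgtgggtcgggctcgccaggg
Nr4a2: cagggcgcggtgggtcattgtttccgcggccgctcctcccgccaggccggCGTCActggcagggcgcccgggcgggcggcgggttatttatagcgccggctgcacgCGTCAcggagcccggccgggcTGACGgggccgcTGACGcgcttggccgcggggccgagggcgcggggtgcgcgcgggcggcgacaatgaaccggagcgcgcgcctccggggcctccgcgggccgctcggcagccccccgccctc
Nr4a3: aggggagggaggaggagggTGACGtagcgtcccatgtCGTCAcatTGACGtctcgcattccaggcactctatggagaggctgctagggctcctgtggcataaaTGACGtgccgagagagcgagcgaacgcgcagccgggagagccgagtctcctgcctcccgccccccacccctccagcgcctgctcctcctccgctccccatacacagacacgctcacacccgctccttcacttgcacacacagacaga
Each promoter held 4 matches. The nearest to the start lay 40 bases before it in Nr4a1, 111 in Nr4a2 and 147 in Nr4a3. Of the 32851 windows of 300 bases searched, 76 held 4 or more matches (0.231%), and these were the only listed receptors among them. At least 1 match stood in 20.8% of all windows and in 13 of the 43 windows of listed receptors (30.2%), so a single match is common. The full palindromic element, in which TGACG matches on both strands with overlap, stood in 1.79% of windows and in none of these 3. GC content was higher for the receptors' windows (median 61.3%) than for all windows (52.7%), and motif shares were not matched for it. Of the 30 receptors 27 had a window, and Nr3c1, Thra and Hnf4g had none.

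Nr4a1 (chromosome 15, 101151788 to 101172676, GRCm39) came closest to a difference between the groups. Its levels in the KO-labelled libraries had a lowest value of 46.5, a median of 88.8 and a highest value of 185.8 CPM. In the WT-labelled ones they were 29.5, 49.2 and 133 CPM. The median of the first group was above most of the second, and 11 of 12 KO-labelled libraries lay above the WT median, but the ranges overlapped. The means were 93.1 ± 35.8 CPM (SD, n = 12) and 60.3 ± 31.3 CPM (n = 12), and the log2 difference was 0.63 ± 0.24 (unadjusted p = 0.0149, adjusted p = 0.185 in edgeR). Leaving out single libraries gave 0.49 (without KO 9) to 0.79 (without WT 15), with no call in any such fit.

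Nr4a2 and Nr4a3 each depended on a few libraries. Nr4a2 (chromosome 2, 56996845 to 57014018, GRCm39) ranged from 11.3 through 22.2 to 96.0 CPM in the KO-labelled libraries and from 8.48 through 15 to 79.4 CPM in the WT-labelled ones. The highest values were in KO 9 and WT 19, and the next highest library of either group held 29.4 CPM. Its log2 difference of 0.24 ± 0.38 was -0.18 without KO 9 and 0.64 without WT 19. Nr4a3 (chromosome 4, 48045098 to 48086446, GRCm39) ranged from 1.65 through 2.59 to 16.1 CPM in the KO-labelled libraries and from 1.18 through 2.29 to 82.3 CPM in the WT-labelled ones. The same KO 9 and WT 19 held the highest values, and the other 22 libraries lay between 1.18 and 6.50 CPM. The sign of its difference turned with 1 library and with the tool: edgeR gave -1.10 ± 0.69, or 0.82 without WT 19, and DESeq2 gave 0.36 and limma voom 0.05. Nr4a1 was not among the extremes in WT 19, at 70.9 CPM.

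**Figure D3:**
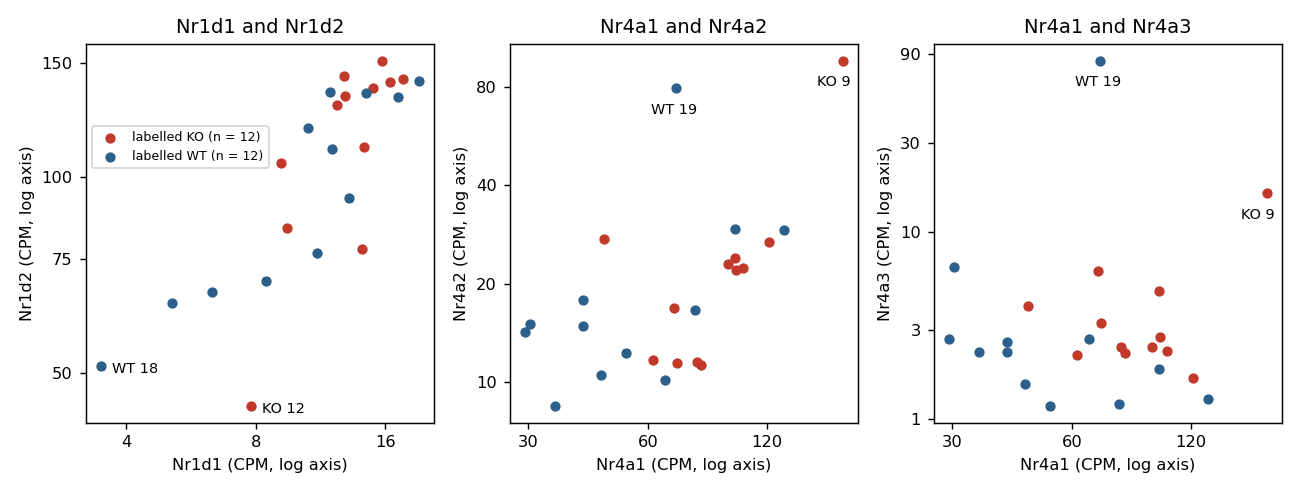
Paired levels by library in CPM, both axes logarithmic, for Nr1d1 and Nr1d2 (left), Nr4a1 and Nr4a2 (middle) and Nr4a1 and Nr4a3 (right), with 12 KO-labelled libraries in red and 12 labelled WT in blue. The REV-ERB genes lie along a diagonal in both groups, whereas in the NR4A panels KO 9 and WT 19 lie far above the other libraries in Nr4a2 and Nr4a3.

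Relations within the NR4A family did not pass the threshold over all 12 libraries of a group. For Nr4a1 and Nr4a2, r was 0.674 in the KO-labelled libraries and 0.534 in the WT-labelled ones (n = 12 each, adjusted p = 0.0525 and 0.124 by permutation). Spearman's rho was 0.434 and 0.52 in the same order (p = 0.16 and 0.0837 by permutation). Without the libraries farthest in Nr4a1, r was 0.839 in the first group (permutation p = 0.00509, without KO 9 and KO 10) and 0.392 in the second (permutation p = 0.295, without WT 14 and WT 15). For Nr4a1 and Nr4a3, r was 0.347 and -0.08 (adjusted p = 0.399 and 0.855 by permutation), and -0.34 and 0.164 without the same libraries. Of 11 immediate early genes, which respond to the same stimuli, none passed, with 4 at an unadjusted p under 0.05 (36.4%, beside 18.9% of all tested genes), all with a higher mean in the KO-labelled libraries, as had 10% of all tested genes. Without KO 12 the count was 5 (45.5%, beside 17.8% of all genes), again all higher. Atf3, a stress-induced transcription factor gene, averaged 45.3 ± 26.9 CPM in the KO-labelled libraries and 27.5 ± 9.60 CPM in the WT-labelled ones (adjusted p = 0.152 in edgeR), above the WT median in 12 of 12. Fosb, an AP-1 subunit gene, averaged 17.3 ± 21.6 against 6.10 ± 6.26 CPM (adjusted p = 0.184 in edgeR). Both were highest in KO 9, the library highest in Nr4a1 and Nr4a2, at 108 and 66.6 CPM, and without it their unadjusted p was 0.0255 and 0.0581. Jun, another AP-1 subunit gene and the most abundant of the list, averaged 158 ± 34.7 against 162 ± 32.0 CPM.

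Of the COUP-TF receptors, Nr2f6 was abundant and Nr2f2 and Nr2f1 were low. Nr2f6 averaged 91.9 ± 19.3 CPM in the KO-labelled libraries and 84.5 ± 6.99 CPM in the WT-labelled ones. Its highest value, 151 CPM, was that of KO 12, and the log2 difference of 0.12 ± 0.08 was 0.03 without it. Nr2f2, which marks venous and lymphatic endothelium and stroma, averaged 9.0 ± 3.03 against 10.9 ± 4.53 CPM, a log2 difference of -0.28 ± 0.21. WT 18 held its highest level, 22.4 CPM. Nr2f1, known from neural development, held 182 reads over the KO-labelled libraries and 131 over the WT-labelled ones, or 0.601 ± 0.420 and 0.385 ± 0.236 CPM. Its log2 difference of 0.63 ± 0.37 (adjusted p = 0.346 in edgeR) was 0.13 with adipocyte and muscle scores as covariates and 0.71 without KO 12.

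The relation of Nr2f2 to the endothelial marker score passed in 1 group. In the KO-labelled libraries r was 0.676 (n = 12, permutation p = 0.0168, adjusted 0.0469), rho was 0.657 (p = 0.0243 by permutation) and r was 0.731 without KO 2 and KO 9. The adjusted p was 0.0693 by permutation without KO 12. In the WT-labelled libraries r was -0.10 (adjusted p = 0.855 by permutation) and rho -0.31 (p = 0.322 by permutation), and r was -0.78 without WT 14 and WT 18 (permutation p = 0.00987). The WT value therefore rests on those libraries, and whether the groups' coefficients differ was not tested. Endothelial markers summed to 67.2 to 180.3 CPM in the KO-labelled libraries and 65.7 to 140.5 CPM in the WT-labelled ones. Nr2f1 and Nr2f2 were unrelated at the threshold, with r of 0.06 and 0.15 (adjusted p = 0.855 and 0.819 by permutation).

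Nr2c1 and Nr2c2 are orphan receptors that bind direct repeats and mostly repress, and Nr6a1 encodes the germ cell nuclear factor. Nr2c1 and Nr6a1 were among the steadiest receptors, whereas Nr2c2 was far lower in 1 library. Nr2c1 averaged 33.0 ± 3.67 CPM in the KO-labelled libraries and 36.1 ± 4.64 CPM in the WT-labelled ones, a log2 difference of -0.13 ± 0.07. Nr6a1 averaged 8.24 ± 0.999 against 8.76 ± 1.30 CPM, a log2 difference of -0.09 ± 0.10. Nr2c2 (chromosome 6, 92068399 to 92150039, GRCm39) ranged from 3.28 through 23.7 to 29.0 CPM in the KO-labelled libraries and from 23.7 through 28.9 to 34.4 CPM in the WT-labelled ones. The value of 3.28 CPM was that of KO 12, and 11 of 12 KO-labelled libraries lay below the WT median. The log2 difference was -0.31 ± 0.19 (unadjusted p = 0.107, adjusted p = 0.357 in edgeR) with KO 12 and -0.21 (unadjusted p = 0.00609, adjusted p = 0.148) without it. Of the exon bases of Nr2c2, 48.6% are shared with genes on the opposite strand, mainly Mrps25, and under the recorded settings reads there were counted for neither gene.

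The HNF4 receptors, which drive liver and gut genes, were not detected. Hnf4a had 16 reads of 612911732 over the 24 libraries (exact 95% Poisson interval 9.15 to 26.0, counting error only) and at most 3 in a library. Hnf4g had 6 (interval 2.20 to 13.1) and at most 2. Of 11 known HNF4 target genes, 2 passed the expression filter, Vil1 and Mttp. Vil1, a villin gene, averaged 3.19 ± 0.872 against 2.61 ± 1.25 CPM, and Mttp, of lipoprotein assembly, averaged 4.47 ± 0.802 against 4.50 ± 0.843 CPM, neither called.

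The 19 other receptor genes place the listed ones in context. Of these, 12 were detected, 11 were tested and none passed or had an unadjusted p under 0.05. The oxysterol receptor gene Nr1h2, at 23.9 CPM per kilobase, stood among the 10 highest of all 49. Nr1h3, its paralogue, at 3.95 CPM per kilobase, and Esr1, the gene of oestrogen receptor alpha, at 2.08, were in the middle range. Nr1h4, Pgr, Esrrb, Esr2, Nr1i2, Nr5a2 and Rorb lay below 1 CPM per kilobase. Nr0b2, Nr1i3 and Nr2e3 were above 3 reads in fewer than 12 libraries, and Nr0b1, Nr1h5, Nr2e1 and Nr5a1 in none.

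The spread between tumours differed widely among the receptors. The biological coefficient of variation estimated by edgeR lay above the trend for 13 of 28 receptors (46.4%) and for 24.7% of all tested genes. It was highest for Nr4a3 (1.07), Rxrg (1.05), Pparg (0.640) and Nr4a2 (0.628). The steadiest were Nr2c1 (0.143), Rxrb (0.146) and Nr2f6 (0.155). In 5 receptors, Rarg, Rxrb, Ppard, Nr2c1 and Nr6a1, the highest library was less than 2 times the lowest. Retinoid X receptors thus stood at both ends, with Rxrg among the most variable and Rxrb among the steadiest, as did orphan receptors.

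KO 12 departed furthest from the others. It was the lowest library for 10 of 28 receptors and the highest for 3, Nr2f6, Rxrb and Esrra. Its median absolute log2 distance from each receptor's median was 0.645, against 0.0968 to 0.427 in the other 23 libraries, and it was 0.617 over all tested genes. Across the 28 receptors this distance, with its sign, had a Spearman rho of -0.45 with exon length, and across all tested genes -0.47. The other 23 libraries ranged from -0.36 (WT 22) to 0.55 (WT 21) over the receptors and from -0.19 (KO 3) to 0.26 (WT 18) over all tested genes, so KO 12 had the lowest value on each measure, by a small margin over the receptors and by a wide one over all genes. These are descriptions across genes of 1 library, which share its preparation. KO 12 also had the lowest read total, 18789250, the lowest fibroblast marker sum (620 CPM) and the highest neutrophil marker sum (381 CPM). That neutrophil sum was mostly S100a8, at 363 CPM, with S100a9 at 15.4 CPM. Csf3r of the same list was at its lowest in KO 12, at 2.51 CPM. The read total of KO 3 was close, at 18799631, and its median distance over the receptors was 0.203. The part of read total and marker content in the receptors' values was not tested.

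**Figure D4:**
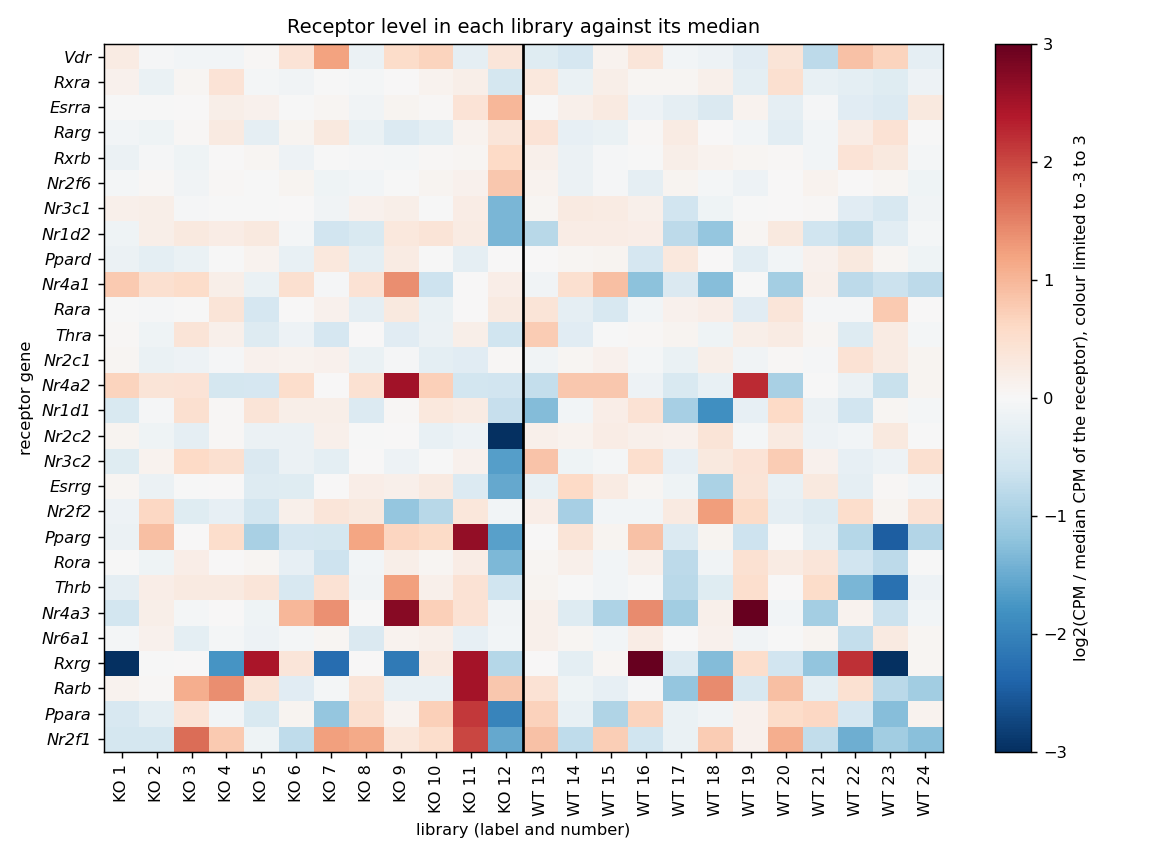
Level of each receptor (rows, ordered by mean level per kilobase) in each library (columns, KO left and WT right of the line), as log2 of its CPM over the receptor's median CPM, with colours limited to -3 to 3. The KO 12 column is the most strongly coloured, blue for 10 receptors that have their lowest value there. Dark cells in other columns include WT 19 and KO 9 in Nr4a3 and KO 11 in Pparg and Rarb. The Rxrg row is dark blue in WT 23 and KO 1 and dark red in WT 16.

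The balance between paralogues was compared as the share of 1 member in the summed CPM per kilobase of its subfamily. None of 10 shares differed between the groups after adjustment (permutation test, two-sided, 100000 resamples). The lowest adjusted p, 0.111 by permutation, was reached by a pair of them. Nr3c1 made up 88.8 ± 2.62% of Nr3c1 and Nr3c2 in the KO-labelled libraries (SD, n = 12) and 85.9 ± 2.92% in the WT-labelled ones (n = 12; permutation p = 0.0179). Thra made up 85.3 ± 5.38% of Thra and Thrb against 89.8 ± 3.90% (permutation p = 0.0223). In each case 10 of 12 KO-labelled libraries lay on the same side of the WT median. The same 10 of 12 was seen for the Nr4a1 and Esrra shares (permutation p = 0.156 and 0.0732), so this count does not set the pair apart. Without KO 3 the Nr3c1 share passed, the only call in 24 such repeats.

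The other shares show which paralogue carries each subfamily. Esrra made up 89.8 ± 2.65% of its pair (SD, n = 24), Ppard 87.7 ± 8.81% of the PPARs, Nr2c1 68.7 ± 6.21% of its pair, and Nr4a1 64.4 ± 12.7% of the NR4A genes. Rxra made up 50.9 ± 6.05% of the retinoid X receptors, Rara 27.8 ± 3.69% of the retinoic acid receptors, Nr1d1 22.6 ± 4.22% of the REV-ERB pair and Nr2f2 8.15 ± 3.09% of the COUP-TFs. The Nr2c1 share depended on the exon length used: with the shared bases of Nr2c2 left out of its length it was 53.3 ± 8.46% (SD, n = 24), and 51.7 ± 3.40% without KO 12 (n = 23). Single tumours departed from these: Ppard had its lowest share, 54.9%, in KO 11, Nr4a1 had 24.5% in WT 19, and Nr2c1 reached 94.5% in KO 12.

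**Figure D5:**
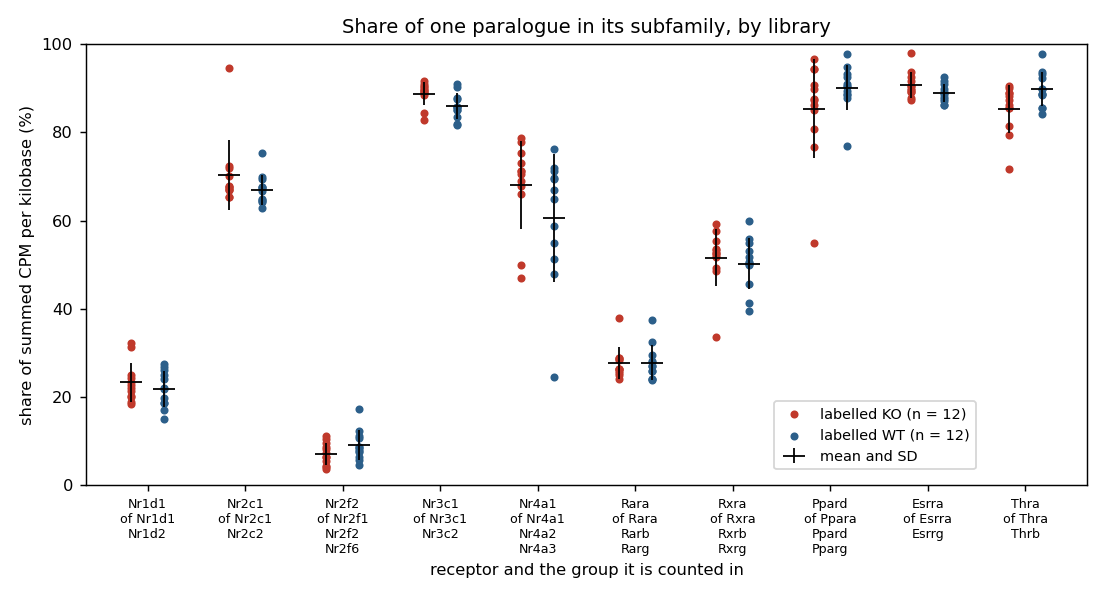
Share of 1 paralogue in the summed CPM per kilobase of its subfamily, in percent, for each library (red, 12 labelled KO, and blue, 12 labelled WT), with black marks for the group mean and SD. The groups overlap in all 10 shares, and the outlying points are KO 12 for Nr2c1, WT 19 for Nr4a1 and KO 11 for Ppard.

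The cofactors that receptors recruit were examined as fixed lists. None of 13 coactivator genes passed, with 3 at an unadjusted p under 0.05 (23.1%, beside 18.9% of all tested genes), all with a lower mean in the KO-labelled libraries, as had 8.9% of all tested genes. The count was again 3 without KO 12 alone (beside 17.8% of all genes) or KO 11 alone (beside 17.2%). Without both it was 1 (7.69%, beside 15% of all genes). Carm1, an arginine methyltransferase coactivator, averaged 38.0 ± 4.68 CPM in the KO-labelled libraries and 48.6 ± 10.8 CPM in the WT-labelled ones (adjusted p = 0.107 in edgeR), below the WT median in 12 of 12. Crebbp, an acetyltransferase, averaged 73.0 ± 8.995 against 83.7 ± 12.3 CPM (adjusted p = 0.199 in edgeR), and its relative Ep300, the most abundant, 93.0 ± 22.5 against 107 ± 13.4 CPM. Of 10 corepressor genes none passed, with 5 at an unadjusted p under 0.05 (50%, beside 18.9% of all tested genes), 2 higher and 3 lower in mean in the KO-labelled libraries. That count was again 5 without KO 12 alone or KO 11 alone, and 4 without both (40%, beside 15% of all genes). Ncor1, the corepressor of unliganded receptors and the most abundant of its list, averaged 185.1 ± 45.2 against 236.5 ± 30.2 CPM (adjusted p = 0.183 in edgeR), below the WT median in 12 of 12. Tbl1x, a subunit of the same complex, averaged 143 ± 14.2 against 164.5 ± 12.5 CPM, and Hdac3, its deacetylase, 164 ± 26.5 against 143 ± 7.91 CPM (adjusted p = 0.106 and 0.148 in edgeR). Hdac3 was highest in KO 12, and its log2 difference of 0.20 was 0.13 without it (unadjusted p = 0.007 with KO 12 and 0.00403 without, in edgeR). Ncor1 was lowest in KO 12, at 62.8 CPM, and its log2 difference of -0.35 was -0.27 without it (unadjusted p = 0.014 with KO 12 and 0.00187 without, in edgeR). The lists were chosen with earlier results of these data known, so their counts are a description.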

How the data were processed

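RNA of 24 whole mammary tumours was sequenced with a strand-specific mRNA kit, per the labels' protocols. The deposited counts are whole reads per gene from featureCounts 2.0.0 on a RefSeq annotation of GRCm39, per the file headers. Those headers show no strand option, so reads of overlapping genes on opposite strands were assigned to neither. Per the submitters' processing notes, STAR and Subread were also used, with versions not given in the sources available. The log2 fold changes and log2 CPM in the authors' table were read as deposited. Its p-values, adjusted by the authors, were read as well, and its F score and signed fold score, also deposited by the authors, were not used.

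Groups came from the labels, and no batch is labelled. Symbols were matched by the authors' table for 25 listed receptors and by a RefSeq gene table for 5. After filterByExpr and TMM scaling, all 15820 remaining genes were tested with edgeR 4.0.16 in R 4.3.3 (quasi-likelihood, two-sided, Benjamini-Hochberg threshold 0.05). Log2 CPM used a prior count of 2. Shares and correlations used permutation tests with 100000 resamples, adjusted over 10 shares and 14 relations. Other settings tried were DESeq2 1.42.0, voom of limma 3.58.1 with sample weights, RLE scaling, upper-quartile factors, robust dispersion, other filters and thresholds, covariates and leaving out libraries. The edgeR script was tested on simulated data. The text names all listed receptors, Nr0b2, the other receptors (some not reported here) and, of each pathway list, the 2 smallest p-values and the most abundant gene. The members and lists were chosen with earlier results of these data known. The exact Poisson intervals and the read floors cover counting error only. The intervals of the log2 differences come from the standard error of the edgeR fit.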

Additional observations from a re-analysis of the deposited data

How the results depend on the processing

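The count of 0 receptors called held under RLE and upper-quartile scaling, DESeq2, limma voom, robust dispersion, both other filters, the covariates, thresholds of 0.1 and 0.01, without KO 11 and KO 12, and without each library in turn. Over all genes the 50 calls became 418 with DESeq2, 101 with adipocyte and muscle scores as covariates, 31 without KO 11 and KO 12, 231 at a threshold of 0.1 and 8 at 0.01, and 9 (without WT 18) to 72 (without WT 14) with 1 library left out. Detection gave 28 receptors at more than 0 reads and 27 at more than 10. Calls among paralogue shares ran from 0 to 1 (without KO 3) with 1 library left out. The 5 called relations became 2 without KO 11 and KO 12, and 3 without KO 12. The last setting was chosen after seeing the data, as was the exon length without shared bases, which moved 5 ranks in the order (Nr2c2 from 3.12 to 6.06 CPM per kilobase). No log2 difference of a receptor that turned sign had passed the test. With covariates Nr3c1 was -0.0196, Rxra -0.072, Ppara -0.24 and Ppard 0.0106. Rxra was -0.0054 with upper-quartile factors, Ppara was -0.0697 without KO 11 and KO 12, and Nr4a3 was 0.36 in DESeq2 and 0.0497 in voom. With 1 library left out, differences that turned ranged from -0.18 to 0.64 for Nr4a2, -1.52 to 0.82 for Nr4a3, -0.11 to 0.0095 for Rara, -0.0334 to 0.0584 for Rxra, -0.61 to 0.45 for Rxrg, -0.16 to 0.31 for Ppara and -0.12 to 0.0022 for Rora. The Rara share difference was 0.345 points without KO 11 and KO 12 and -0.9995 to 0.808 with 1 library left out. Without KO 11 and KO 12, r in the KO-labelled libraries was -0.08195 for Nr2f1 and Nr2f2 and -0.23 for Pparg and Rxrg. The cause was not tested. No paired analysis was possible because the replicate numbers of the groups do not overlap. The libraries left out beside pathway genes and their counts were also chosen after seeing the data. For Hnf4a and Hnf4g depth limits any statement to their read counts.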
